A study of Mus musculus with 12 samples.

Results

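Glycolysis and hypoxia response genes were followed across cultured mouse helper T cells. The set has 36 genes, chosen by symbol from their known roles: 22 encode glycolytic enzymes, regulatory enzymes and transporters of glucose or lactate, and 14 are other genes of the hypoxia response. All 36 were found on the array by gene symbol, with Pkm listed there as Pkm2 and Ero1a as Ero1l, and they are 36 of the 17925 genes tested. No member was lost to the filter on dim probes, because every member was well above background on all 12 arrays.

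Naive CD4+CD62L+ T cells of the C57BL/6 strain, isolated from spleen and lymph nodes, were activated in every group with anti-CD3 and anti-CD28 and kept in culture for 5 days, with fresh medium on day 3. Th2 cultures, whose cells make IL-4, had IL-4 (20 ng/ml) and anti-IFN-γ. Th9 cultures, whose cells make IL-9, had these and TGF-β (2 ng/ml), and both IL-4 and TGF-β were given again on day 3. Treg cultures, for induced regulatory T cells, had TGF-β (2 ng/ml) and anti-IL-4, with IL-2 on day 3. The fourth group was Th9 cells restimulated for 6 h with anti-CD3 (1 µg/ml) at the end of culture. All groups are therefore cells that were activated and polarised in vitro, and the labels state no oxygen level. Each group had 3 arrays. Whether the 3 were grown as separate cultures, or from separate mice, is not stated in the labels. A p-value here covers the spread between arrays of a group, pooled over all 4 groups, and no more, and that spread may be technical. A member's SE is therefore the same in every comparison of the main fit, and a wide spread in 1 group enters them all.

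Values are levels, written as log2 of the Agilent signal relative to the 75th percentile of the same array, so that a level of 0 lies at that percentile. Levels of different genes come from different probes and are not compared with each other. Differences are log2 differences with the standard error (SE) of limma, fitted across all genes tested, and a gene was called where its Benjamini-Hochberg adjusted p was under 0.05. Means of levels carry the SD over 3 arrays. On the 12 arrays, 24642 to 26216 probes (59.9 to 63.7%) were well above background, and no probe was saturated. Il9 was well above background on all 6 Th9 and restimulated arrays and on no Th2 or Treg array. Foxp3, the defining transcription factor gene of regulatory T cells, was highest on the Treg arrays (0.43 to 0.78), lower on the Th9 arrays (-2.07 to -1.90) and not well above background on any Th2 array. The list of 4 Treg markers that holds Foxp3 did not move as a whole. Against the Treg arrays, 2 of the 4 were called higher and 2 lower on the Th9 arrays. On the Th2 arrays 1 was called higher and 2 lower. The summed level of the 4 was lowest on the Treg arrays (3.23 to 3.51). It was 3.62 to 3.91 on Th2, 4.41 to 4.57 on Th9 and 4.88 to 5.35 on restimulated arrays. Il4 was higher in Th2 than in Treg cultures by 11.03 ± 0.40 (SE), and Gata3, the Th2 transcription factor gene, by 1.62 ± 0.16. Cd4 and Cd3e were well above background on all 12 arrays. The 12 arrays were on 3 slides. The first slide held the Th2 arrays and Treg array 1, the second Treg arrays 2 and 3 and restimulated arrays 1 and 2, and the third the Th9 arrays and restimulated array 3. No slide held Th9 arrays together with Th2 or Treg arrays.

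Glycolysis converts glucose to pyruvate in the cytosol. Glucose enters through transporters of the GLUT family, is trapped by hexokinase, passes the committed step at phosphofructokinase, and can leave as lactate through monocarboxylate transporters. Activated T cells are known to raise this pathway. The transcription factor HIF-1, made of HIF-1α and ARNT, is held low in oxygen by prolyl hydroxylases and the VHL protein, and otherwise binds short elements with the core letters ACGTG or GCGTG near genes of glycolysis, iron and oxygen handling and collagen modification. In T cells it can also be raised by antigen receptor and mTOR signalling in normal oxygen, and MYC acts on many of the same glycolytic genes.

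Promoter sequence was available in RefSeq (GRCm38.p6) for 34 of the 36 genes, in windows from 250 bases before to 50 bases after a transcription start. ACGTG or GCGTG, searched on both strands, stood in 41 of the 50 windows of these genes (82.0%), against 14380 of all 32851 windows (43.8%) and 58.9% of the 14274 windows of genes tested here. At least 2 matches stood in 62.0% of the members' windows, 20.6% of all windows and 31.7% of windows of genes tested. The members' windows also had more G and C (median 64.0%, against 52.7% in all windows and 60.0% in those of genes tested), and both motifs are rich in these bases. CACGTG, the E box bound by MYC and related factors, holds the ACGTG core on each strand and is counted as 2 matches. It stood in 12.0% of the members' windows, 7.15% of all windows and 9.6% of windows of genes tested. A match is a run of letters, not a measured binding site. The 250 bases before the start are shown for P4ha2 and Ero1a, which differed widely between cultures, and for Hk2 and Slc16a1, which did not fall on restimulation. The motif letters on either strand are in capitals, and the windows are on the strand of the gene, at chr11:54100674-54100923 (plus strand), chr14:45318573-45318822 (minus), chr6:82774455-82774704 (minus) and chr3:104638414-104638663 (plus).
P4ha2: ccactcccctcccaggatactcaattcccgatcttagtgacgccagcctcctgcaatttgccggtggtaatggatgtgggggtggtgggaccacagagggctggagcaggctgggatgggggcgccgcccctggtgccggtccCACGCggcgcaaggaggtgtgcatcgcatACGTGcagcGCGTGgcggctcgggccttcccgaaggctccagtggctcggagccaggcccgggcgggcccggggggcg
Ero1a: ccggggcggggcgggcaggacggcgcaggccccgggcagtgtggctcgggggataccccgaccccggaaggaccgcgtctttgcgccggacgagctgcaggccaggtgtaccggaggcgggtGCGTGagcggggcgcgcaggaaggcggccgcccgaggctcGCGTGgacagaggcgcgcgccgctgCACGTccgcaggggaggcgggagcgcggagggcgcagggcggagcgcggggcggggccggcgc
Hk2: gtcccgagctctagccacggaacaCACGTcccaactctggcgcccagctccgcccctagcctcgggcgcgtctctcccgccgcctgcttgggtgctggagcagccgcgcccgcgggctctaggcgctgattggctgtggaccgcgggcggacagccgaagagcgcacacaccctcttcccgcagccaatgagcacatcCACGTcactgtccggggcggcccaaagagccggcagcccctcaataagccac
Slc16a1: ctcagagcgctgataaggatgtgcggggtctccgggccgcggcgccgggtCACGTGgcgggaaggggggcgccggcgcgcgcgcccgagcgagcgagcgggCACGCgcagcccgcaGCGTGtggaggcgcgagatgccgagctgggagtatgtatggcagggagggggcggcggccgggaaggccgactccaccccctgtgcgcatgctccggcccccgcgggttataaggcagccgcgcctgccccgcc
In these bases P4ha2 and Ero1a had 3 matches each, Hk2 had 2, and Slc16a1 had 4, of which 2 are the strands of 1 CACGTG.

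The signals come from 60-base probes. The first 30 bases of the probe are shown for P4ha2, for Hk2 and Slc16a1, and for Slc2a3, which fell most on restimulation. Per the array annotation on the build mm8 they lie at chr11:53974953-53975012, chr6:82690720-82690779, chr3:104786079-104786138 and chr6:122693676-122693735, and the part of the gene they fall in was not looked up, since no annotation of that build was used.
P4ha2: cagatatttcaggtagaagatgtctcagtg
Hk2: tagtgagcgttttgtcatcatgtacagtag
Slc16a1: atgggttcagtgtaaggataagaggaaaga
Slc2a3: gtgcttacacatttcagaccctttaggcaa
Single probes stood for 18 members, and 18 others had further probes. Where the tested probe with the highest mean was called, the gene's other probes were compared with it: 25 of 25 were called in the same direction for Th9 against Treg, for Th2 against Treg and for restimulated against unstimulated Th9 cells, and none in the opposite direction. For Th9 against Th2 cells 0 of 3 were called, and all 3 had the same sign. Some glycolytic genes, Gapdh among them, are known to have near-identical processed pseudogenes, and whether their probes bind those transcripts was not tested.

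**Figure D1:**
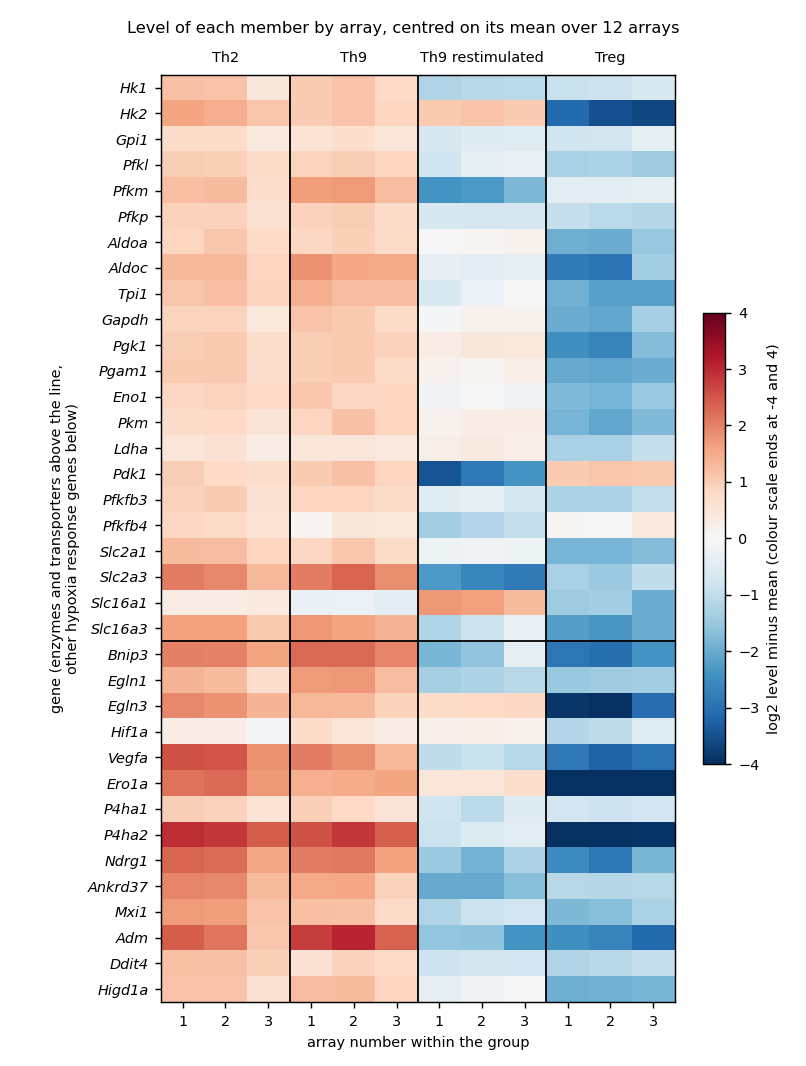
Level of each of the 36 genes (rows) on each of the 12 arrays (columns, by group), as log2 level minus the gene's mean over the 12 arrays; the colour scale ends at -4 and 4. The Th2 and Th9 columns are red in nearly every row, the Treg columns are blue except in Pdk1 and Pfkfb4, and the restimulated Th9 columns lie between or below except in Hk2 and Slc16a1.

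Th9 cells were compared with Treg cells, cultures that share TGF-β. Of the 36 genes 34 were higher in Th9 cells and 0 were lower, where 28.8% of all genes tested were higher and 35.3% lower. At an unadjusted p under 0.05 the counts were again 34 and 0, where 12089 of 17925 genes tested passed in either direction. The median difference over the members was 2.73, against -0.11 over all genes tested. All 15 glycolytic enzymes, all 4 transporters and all 14 other hypoxia response genes were higher, and of the 3 regulatory enzymes only Pfkfb3 was. The same 34 genes had no overlap between the arrays of both groups, which held for 69.2% of all genes tested.

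Among the enzymes Hk2, the inducible hexokinase, differed most. Its levels were 5.18, 5.31 and 5.03 on the Th9 arrays and 1.06, 0.66 and 0.52 on the Treg arrays. All Th9 arrays lay far above all Treg arrays, by 4.42 ± 0.16 (SE, 21.5-fold, adjusted p = 1.03e-08). Hk1, the constitutive hexokinase, was at 6.41, 6.52 and 6.18 in Th9 and at 4.50, 4.56 and 4.78 in Treg cultures, a smaller difference of 1.75 ± 0.18 (adjusted p = 1.23e-05). The brain-type aldolase Aldoc differed by 4.0 ± 0.34, with levels of 5.44, 5.20 and 5.16 in Th9 and 0.81, 0.69 and 2.29 in Treg cultures. Its Treg array 3 stood above arrays 1 and 2, and gave Aldoc the widest SD of any member in that group (0.89). The triose phosphate isomerase gene Tpi1 was higher by 3.41 ± 0.15 and the phosphoglycerate kinase gene Pgk1 by 3.27 ± 0.20. The remaining enzymes lay between Gpi1, the glucose phosphate isomerase gene, at 1.21 ± 0.13 and Pgam1, the phosphoglycerate mutase gene, at 2.97 ± 0.13. These were the phosphofructokinase genes Pfkl (2.24), Pfkm (1.96) and Pfkp (1.92), Aldoa (2.66), Gapdh (2.78), the enolase gene Eno1 (2.62), the pyruvate kinase gene Pkm (2.86) and the lactate dehydrogenase gene Ldha (1.64).

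The glucose transporter genes were both higher in Th9 cells. Slc2a1, which encodes GLUT1, was at 5.62, 5.87 and 5.54 on the Th9 arrays and at 2.94, 2.94 and 3.07 on the Treg arrays, a difference of 2.69 ± 0.13 (6.45-fold). Slc2a3, which encodes the high-affinity GLUT3, was at 6.70, 6.98 and 6.50 against 3.35, 3.17 and 3.68, a difference of 3.33 ± 0.22 (10.1-fold). Of the monocarboxylate transporters, the lactate exporter gene Slc16a3 (MCT4) differed by 3.74 ± 0.23 and Slc16a1 (MCT1), which carries lactate and pyruvate in both directions, by 1.28 ± 0.18. The regulatory enzymes split. Pfkfb3, whose product makes the activator of phosphofructokinase, was higher by 1.96 ± 0.14. Pfkfb4, of the same enzyme family, was at 1.22, 1.60 and 1.57 in Th9 and 1.19, 1.14 and 1.53 in Treg cultures, so that the arrays overlapped (0.18 ± 0.16, adjusted p = 0.34).

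Pdk1, whose product inhibits pyruvate dehydrogenase, is a textbook HIF-1 target, and its Treg arrays lay within the range of its Th9 arrays. Its levels were 3.11, 3.28 and 2.95 in Th9 and 3.11, 3.20 and 3.15 in Treg cultures (difference -0.04 ± 0.22, adjusted p = 0.889). A second probe of Pdk1 gave 0.51 ± 0.24 (adjusted p = 0.08 over probes). With normexp background correction, where that second probe stands for the gene, the difference was 0.55 (adjusted p = 0.0367). The difference was -0.86 with slide as a block (adjusted p = 0.0598). Over 17 settings, the main fit included, the adjusted p ran from 0.0367 to 0.966.

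The 14 other hypoxia response genes had a median difference of 3.68. P4ha2, a collagen prolyl hydroxylase subunit gene, was at 5.11, 5.37 and 4.96 on the Th9 arrays and at -2.31, -2.80 and -1.35 on the Treg arrays, a gap of 7.30 ± 0.31 (157.9-fold, adjusted p = 2.5e-08). A second, dimmer probe of P4ha2 gave 3.30 ± 0.27, and with the mean of both probes the gap was 5.30 ± 0.22. Ero1a, which encodes an oxidase of protein folding in the endoplasmic reticulum, was at 5.57, 5.64 and 5.72 against -0.01, -0.05 and 0.16, a difference of 5.61 ± 0.14 (5.70 with the mean of its probes). In both genes every Th9 array exceeded every Treg array several-fold. Large gaps were also found in the vasodilator peptide gene Adm (5.48 ± 0.36), the mitophagy receptor gene Bnip3 (4.92 ± 0.33), the HIF prolyl hydroxylase gene Egln3 (4.84 ± 0.25), the angiogenic factor gene Vegfa (4.76 ± 0.23) and the stress-responsive gene Ndrg1 (4.34 ± 0.30). Egln1, which encodes the main oxygen-sensing prolyl hydroxylase, was higher by 3.00 ± 0.19, Higd1a, a mitochondrial gene, by 3.02 ± 0.17, Mxi1, an antagonist of MYC, by 2.64 ± 0.21, and Ankrd37 by 2.46 ± 0.21. Ddit4, an inhibitor of mTOR signalling, differed by 1.85 ± 0.12 and P4ha1 by 1.53 ± 0.17. Hif1a, which encodes HIF-1α, had the smallest difference of the 14. Its levels were 4.80, 4.52 and 4.35 in Th9 and 2.89, 3.04 and 3.56 in Treg cultures, without overlap (1.39 ± 0.18, 2.63-fold). HIF-1α is regulated mainly as a protein, which arrays do not measure.

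Th2 cells, which had no added TGF-β, were also compared with Treg cells. The Treg arrays are those already used for Th9 against Treg cells, so the 2 comparisons are not independent. Here 35 of the 36 genes were higher and 0 lower, where 29.3% of all genes tested were higher and 33.5% lower, and the median difference was 2.78 against -0.08 over all genes tested. The arrays of both groups did not overlap in any of the 36, Pdk1 included, against 69.4% of all genes tested. P4ha2 was at 5.52, 5.38 and 4.97 on the Th2 arrays, above Treg by 7.44 ± 0.31 (adjusted p = 2.27e-08). Its dim second probe gave 3.65 ± 0.27 and the mean of both probes 5.55. Both values have the limit from background given for Th9 against Treg cells. Ero1a was at 6.32, 6.41 and 5.87, above Treg by 6.17 ± 0.14. Egln3 differed by 5.34 ± 0.25, Vegfa by 5.31 ± 0.23, Hk2 by 4.80 ± 0.16, Bnip3 by 4.63 ± 0.33, Adm by 4.63 ± 0.36, Slc16a3 by 3.60 ± 0.23, Slc2a3 by 3.01 ± 0.22 and Slc2a1 by 2.93 ± 0.13. Pfkfb4 was called in this comparison, at 0.58 ± 0.16 (adjusted p = 0.00807). Pdk1 was again not called, with 3.08, 2.90 and 2.79 on the Th2 arrays and a difference of -0.23 ± 0.22 (adjusted p = 0.392).

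Slide 1 held Th2 arrays 1 to 3 beside Treg array 1. Within that slide 35 members were higher in Th2 cells and 0 lower, with a median difference of 2.85, where of 17922 genes tested 3945 were higher and 4293 lower. The single Treg array has no spread of its own there, and limma takes it to vary like the Th2 arrays. With slide as a block, the same counts were found for Th2 against Treg cells (35 and 0, against 4319 and 4682 of 17924 genes tested). The members' differences there equal those within slide 1, so this fit also rests on Treg array 1 and is not a second check. For Th9 against Treg cells the counts with slide as a block were 34 and 0, with a median difference of 2.67, against 3157 and 3528 of 17925 genes tested. That fit ties the slide of the Th9 arrays to the others only through restimulated array 3. No slide gives a value of its own for Th9 against Treg cells.

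**Figure D2:**
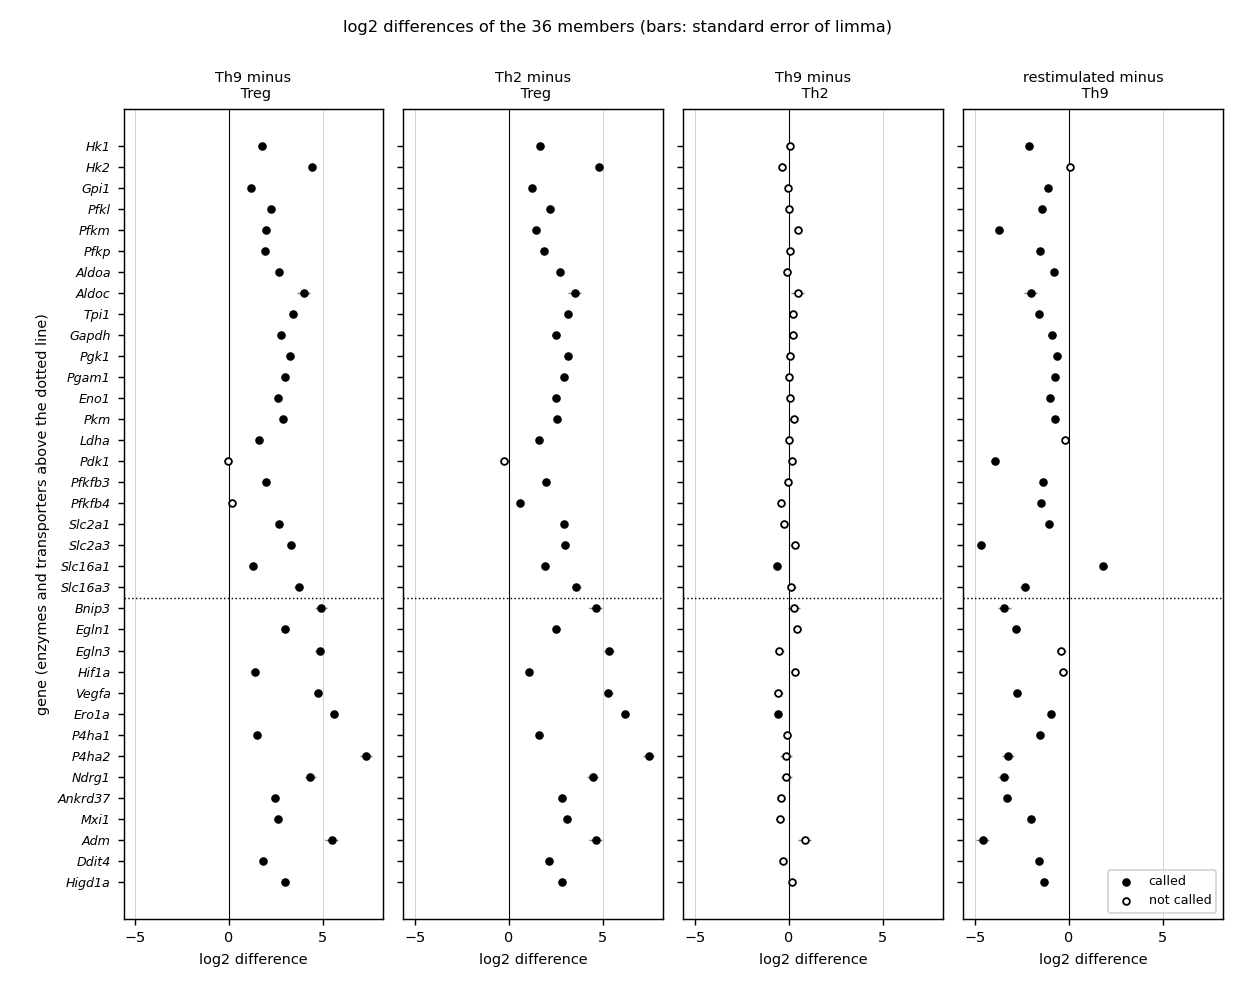
Log2 difference of each of the 36 genes in 4 comparisons, with bars for the SE of limma; filled points were called at an adjusted p under 0.05. In both comparisons with Treg cells nearly all points lie right of 0, up to 7.30 and 7.44 in P4ha2, the points for Th9 minus Th2 cluster at 0, and those for restimulated minus unstimulated Th9 cells lie left of 0 except Slc16a1 and Hk2.

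Th9 and Th2 cultures differ, as the labels describe them, by the TGF-β given to Th9 cultures and by the cytokines given to these again on day 3. Of the 36 genes 0 were higher and 2 lower in Th9 cells by limma, where 7.76% of all genes tested were higher and 9.25% lower, and 9 members had an unadjusted p under 0.05, as had 5660 of the 17924 genes tested. The median difference was 0.03, against -0.03 over all genes tested, and the arrays of both groups did not overlap in 9 members (39.6% of all genes tested). The differences ran from -0.65 in Slc16a1 to 0.85 in Adm. They ran from -1.20 in Bnip3 to 2.10 in Adm with slide as a block, with -1.03 in Mxi1; none was called there and 20 of the 36 kept their sign. Slc16a1 was at 2.64, 2.68 and 2.47 on the Th9 arrays and 3.24, 3.19 and 3.29 on the Th2 arrays, a difference of -0.65 ± 0.18 (adjusted p = 0.0311). Ero1a was lower by 0.56 ± 0.14 on the log2 scale, a difference of -0.56 (adjusted p = 0.0215), and its second probe gave -0.17 ± 0.13 (adjusted p = 0.428 over probes). Both genes were separated between the groups by less than either was from the Treg arrays.

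Neither call was stable. Slc16a1 was called in 9 of 17 settings, the main fit included (adjusted p 0.0105 to 0.985). It was lost without any single array of the 6 (adjusted p 0.0658 to 0.0832). With slide as a block its difference was 0.04 (adjusted p = 0.985), and no member was called. Ero1a was also called in 9 of the 17 settings (adjusted p 0.00327 to 0.35). It was lost without Th2 array 1 (difference -0.50, adjusted p = 0.0787), Th2 array 2 (-0.46, 0.0813), Th9 array 1 (-0.52, 0.0691) or Th9 array 2 (-0.56, 0.0642), and with slide as a block its difference was -0.80 (0.35). The slide block widened the median SE of the members from 0.18 to 0.40, because the 2 groups shared no slide. That fit ties Th9 to Th2 arrays only through restimulated array 3 and Treg array 1, which shared their slides. Adm was at 1.71, 1.98 and 1.30 on the Th9 arrays and at 1.37, 1.07 and 0.00 on the Th2 arrays, a difference of 0.85 ± 0.36 (adjusted p = 0.133). Array 3 was the low one in each group. With replicate number as a block, pairing arrays of the same number, the difference of Adm was called (adjusted p = 0.0127). Over the 17 settings its adjusted p ran from 0.0127 to 0.378.

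Within a group, most members were lowest or highest on the same array. Th2 array 3 was the lowest of the Th2 arrays in 35 of the 36 genes, with a median deviation of -0.27 from the group mean, and Th9 array 3 was the lowest of its group in 31, with a median deviation of -0.16. Treg array 3 was the highest of its group in 26. These counts were not made over all genes tested, and whether they are particular to the members was not tested. Without Th2 array 3 the comparison of Th2 with Treg cells again had 35 members higher, and without Th9 array 3 the comparison of Th9 with Treg cells again had 34. The median SD of a member over 3 arrays was 0.24 in Th2, 0.18 in Th9, 0.11 in restimulated Th9 and 0.19 in Treg cultures.

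Most of the set was lower in Th9 cells restimulated through CD3 for 6 h than in unstimulated Th9 cells. Of the 36 genes 31 were lower, 1 was higher and 4 were not called, where 30.5% of all genes tested were lower and 33.2% higher. The median difference was -1.50 over the members and 0.02 over all genes tested. The arrays of both groups did not overlap in 35 members, against 68.2% of all genes tested. Of the 15 enzymes 13 were lower, as were all 3 regulatory enzymes, 3 of the 4 transporters and 12 of the 14 other hypoxia response genes.

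The 4 transporters moved in opposite directions. Slc2a3 (GLUT3) went from 6.70, 6.98 and 6.50 on the unstimulated arrays to 2.36, 2.04 and 1.83 on the restimulated arrays, the largest fall of the set. The difference was -4.65 ± 0.22 (25.1-fold lower, adjusted p = 1.02e-07), which placed the restimulated arrays below the Treg arrays. Slc2a1 (GLUT1) fell less, to 4.60, 4.65 and 4.59 (-1.06 ± 0.13), and remained above the Treg arrays. Slc16a3 (MCT4) went from 6.55, 6.40 and 6.15 to 3.59, 3.94 and 4.52 (-2.35 ± 0.23). Slc16a1 (MCT1) rose, the only member to do so. Its levels were 2.64, 2.68 and 2.47 before and 4.63, 4.55 and 4.17 after restimulation, a difference of 1.86 ± 0.18 (3.62-fold, adjusted p = 4.93e-06). All 3 probes of Slc16a1 rose, by 1.48 to 1.86, and the restimulated arrays were the highest of all 4 groups.

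**Figure D3:**
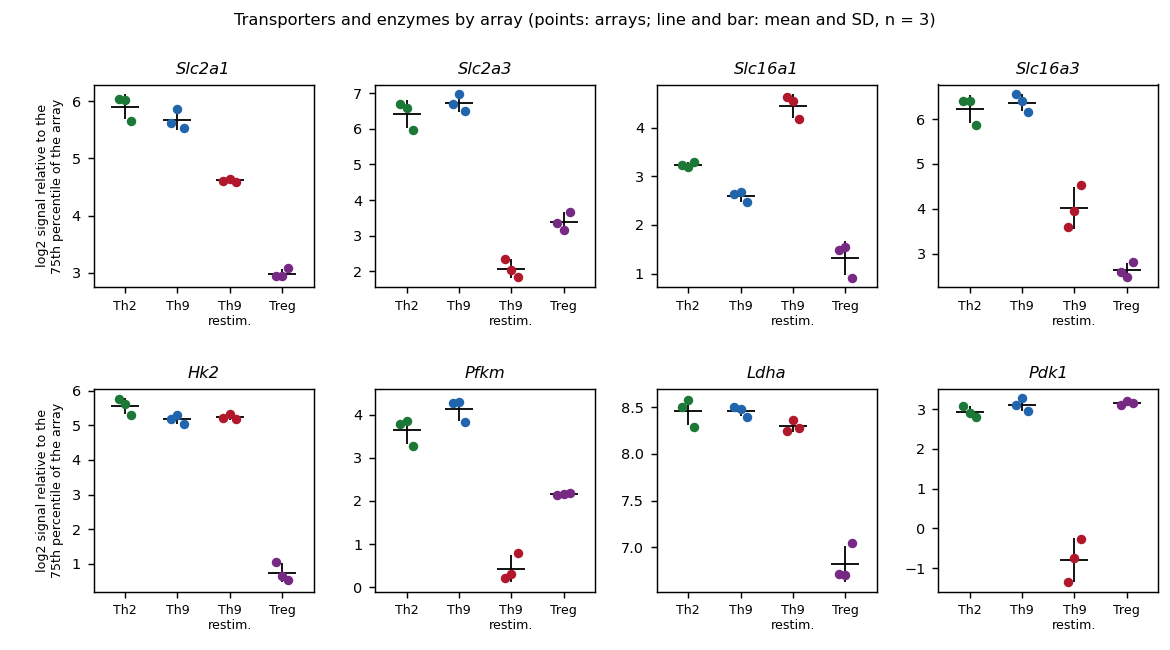
Level of 4 transporters (top) and 4 enzymes (bottom) on each array, as log2 signal relative to the array's 75th percentile, with the mean and SD of 3 arrays; each panel has its own scale. On restimulation Slc2a3, Pfkm and Pdk1 drop below the Treg arrays, Slc16a1 rises above every other group, and Hk2 and Ldha stay near their unstimulated levels.

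The 2 hexokinase genes parted. Hk1 fell to 4.19, 4.29 and 4.30 (-2.11 ± 0.18, adjusted p = 2.59e-06), below every Treg array. Hk2 was at 5.21, 5.33 and 5.18 after restimulation and before it at 5.18, 5.31 and 5.03, so that the arrays overlapped (0.07 ± 0.16, adjusted p = 0.727). Of the phosphofructokinase genes the muscle type, Pfkm, fell most, from 4.27, 4.29 and 3.83 to 0.20, 0.30 and 0.79 (-3.70 ± 0.20, adjusted p = 1.44e-07). Its restimulated arrays lay below the Treg arrays, which were at 2.14, 2.17 and 2.19. The liver type, Pfkl, fell by 1.40 and the platelet type, Pfkp, by 1.53. Aldoa fell by 0.77, Gapdh by 0.89, Pgk1 by 0.61, Pgam1 by 0.75, Eno1 by 0.98 and Pkm by 0.71 on the log2 scale. Gpi1 fell by 1.11, Tpi1 by 1.60 and Aldoc by 2.01. Ldha, whose product makes lactate from pyruvate, was at 8.24, 8.36 and 8.28 after 8.50, 8.48 and 8.39 (-0.17 ± 0.12, adjusted p = 0.242), so that the arrays were separate but the difference was not called. The fall of Pgk1 (adjusted p = 0.0214) was not called without Th9 array 2 (0.0608), without restimulated array 1 (0.0647) or with slide as a block (0.144). Over its 18 settings, the main fit included, the adjusted p ran from 0.00266 to 0.144.

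Pdk1 fell from 3.11, 3.28 and 2.95 to -1.36, -0.76 and -0.26, a difference of -3.91 ± 0.22 (15.0-fold lower, adjusted p = 2.1e-07). The restimulated arrays lay far below those of the 3 other groups, which ran from 2.79 to 3.28. The second probe of Pdk1 fell by 4.01. Pfkfb4 fell by 1.48 ± 0.16 and Pfkfb3 by 1.35 ± 0.14.

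Among the other hypoxia response genes Adm fell from 1.71, 1.98 and 1.30 to -2.61, -2.68 and -3.45 (-4.58 ± 0.36). Ndrg1 fell by 3.45 ± 0.30, Bnip3 by 3.42 ± 0.33, Ankrd37 by 3.25 ± 0.21 and P4ha2 by 3.22 ± 0.31. Restimulated array 3 was the high one for Bnip3 (1.91, 2.19 and 3.38), which gave it the widest SD of that group. Egln1 fell by 2.79, Vegfa by 2.75, Mxi1 by 1.99, P4ha1 by 1.55, Ddit4 by 1.55, Higd1a by 1.28 and Ero1a by 0.96. Among genes of oxygen sensing, Egln3 and Hif1a were not called. Egln3 was at 4.36, 4.42 and 4.45 after 4.94, 4.93 and 4.54 (-0.40 ± 0.25, adjusted p = 0.185). Hif1a was at 4.24, 4.33 and 4.23 after 4.80, 4.52 and 4.35 (-0.29 ± 0.18, adjusted p = 0.184). With quantile normalization between arrays the differences were -0.71 for Egln3 (adjusted p = 0.0245), -0.62 for Hif1a (0.00795) and -0.21 for Ldha (0.0485). All 3 were called there. Over 18 settings, the main fit included, the adjusted p ran from these values to 0.45, 0.475 and 0.584. Egln3 was also called with only the Th9 and restimulated arrays fitted (adjusted p = 0.0461).

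The restimulated arrays were also set beside the Treg arrays. Of the 22 enzymes and transporters 16 had all restimulated arrays above all Treg arrays, 5 below (Hk1, Pfkm, Pdk1, Pfkfb4 and Slc2a3) and 1 overlapping (Gpi1). Of the 14 other hypoxia response genes 11 were above, 1 was below (Ankrd37) and 2 overlapped (P4ha1 and Ndrg1). These orders are described without a test, and the share of all genes tested that lay so apart was not counted. Between Th9 and Treg arrays 69.2% of all genes tested did not overlap, and between Th2 and Treg arrays 69.4%.

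Restimulated array 3 shared its slide with the 3 unstimulated Th9 arrays. Within that slide 30 members were lower and 1 higher, with a median difference of -1.30, where of 17921 genes tested 3818 were lower and 4124 higher and the median was 0.05. The single restimulated array has no spread of its own there, and limma takes it to vary like the Th9 arrays. With slide as a block the members' differences equal those within this slide, so that fit rests on the same restimulated array. In that slide Slc2a3 differed by -4.90, Pdk1 by -3.37 and Slc16a1 by 1.58, and all 3 were called.

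**Figure D4:**
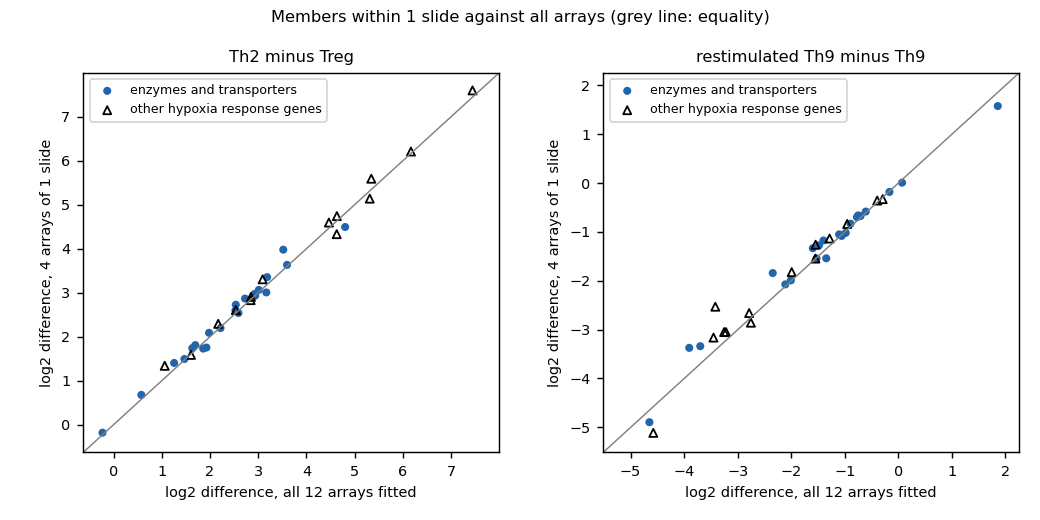
Log2 difference of each of the 36 genes from the arrays of 1 slide (vertical) against the fit of all 12 arrays (horizontal), for Th2 minus Treg cells (left, slide 1) and restimulated minus unstimulated Th9 cells (right, slide 3); circles are enzymes and transporters, triangles other hypoxia response genes. Points lie along the line of equality, with Bnip3 on restimulation at -2.53 within the slide against -3.42, and the signs are the same for 36 of 36 genes in each panel. The arrays of the slide are also among the 12, so part of this agreement is built in.

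Further lists were followed beside the members. Of all genes tested, 28.8% were higher and 35.3% lower in Th9 against Treg cells, and 29.3% and 33.5% in Th2 against Treg cells. In Th9 against Th2 cells the shares were 7.76% and 9.25%, and after restimulation 33.2% and 30.5%. The counts of each list and of the markers stand against these shares. Of 28 other hypoxia response genes 27 were tested. In Th9 against Treg cells 21 were higher and 1 lower, in Th2 against Treg cells 20 and 1, in Th9 against Th2 cells 2 and 4, and after restimulation 5 and 18. The median differences were 1.13, 1.48, 0.03 and -1.16. With slide as a block, 14 were higher and 1 lower in Th9 than Treg cells. Ak4, a mitochondrial adenylate kinase gene, exceeded its Treg level in Th9 cells by 5.54 ± 0.27 and the secreted glycoprotein gene Stc2 by 5.06 ± 0.16. After restimulation Ccng2, a cyclin gene, fell by 4.88 ± 0.19. Edn1, the endothelin gene, was well above background only on the restimulated arrays, at least 11.9-fold above Th9. A fold written as at least is a bound: on each array of the dimmer group, the probe's own signal or the dimmest signal of any probe called well above background was taken, whichever was higher, and the brighter group's mean was divided by the mean of these. The carbonic anhydrase gene Car12 rose by 3.55 ± 0.53.

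Car12 and Angptl4 were also apart between Th9 and Th2 cells. Car12 was at -3.58, -2.54 and -2.17 on the Th9 arrays and at 0.39, -0.09 and -0.01 on the Th2 arrays (-2.85 ± 0.53, adjusted p = 0.00504). Angptl4, a lipase inhibitor gene, was at 1.13, 1.21 and 1.80 against 2.96, 2.97 and 3.37 (-1.72 ± 0.18, adjusted p = 0.000191), and was at 2.85, 2.94 and 3.17 after restimulation. Flt1, a VEGF receptor gene, was below that call on every Th2 array, and Th9 cells exceeded Th2 cells at least 2.40-fold. These 2 groups share no slide, and with slide as a block none of the 3 was called: Car12 differed by -0.99 (adjusted p = 0.794), Angptl4 by -2.0 (0.0726) and Flt1 by 1.66 (0.259).

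The list of genes next to glycolysis had 36 members, 32 of them tested, and was mixed. In Th9 against Treg cells 15 were higher and 12 lower, in Th2 against Treg cells 16 and 10, in Th9 against Th2 cells 4 and 2, and after restimulation 13 and 10. As shares these are 46.9% and 37.5%, 50% and 31.2%, 12.5% and 6.25%, and 40.6% and 31.2%. The median differences were 0.19, 0.20, 0.02 and 0.01. The genes of glycogen handling in this list were among those that moved most. Gys1, the glycogen synthase gene, was at 2.56, 2.62 and 2.06 on the Th9 arrays and at -1.40, -1.59 and -1.24 on the Treg arrays (3.82 ± 0.21), and fell by 4.55 ± 0.21 on restimulation. The branching enzyme gene Gbe1 exceeded its Treg level in Th9 cells by 3.82 ± 0.24, and Pgm1, the phosphoglucomutase gene, fell by 3.17 ± 0.22 on restimulation. Slc2a6, a glucose transporter gene of another class, was at 2.09, 1.72 and 2.44 in Th9 and -1.58, -1.28 and -0.94 in Th2 cultures (3.35 ± 0.22, adjusted p = 9.09e-06). Pdk4, another kinase of pyruvate dehydrogenase, went the other way (-2.43 ± 0.22, adjusted p = 7.66e-05), and was at least 4.93-fold higher in Th2 than in Treg cells. With slide as a block Slc2a6 was still called (3.23, adjusted p = 0.03) and Pdk4 was not (-1.88, 0.102).

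The third list held 18 regulators, all tested. In Th9 against Treg cells 4 were higher and 8 lower, in Th2 against Treg cells 5 and 9, in Th9 against Th2 cells 2 and 1, and after restimulation 7 and 5. As shares these are 22.2% and 44.4%, 27.8% and 50%, 11.1% and 5.56%, and 38.9% and 27.8%. For a list of 18 genes most of them are near the shares of all genes tested. The median differences were -0.23, -0.38, 0.04 and 0.23. Epas1, which encodes HIF-2α, was at -0.09, -0.90 and 0.00 on the Th9 arrays and at -6.24, -5.16 and -4.0 on the Treg arrays (4.80 ± 0.52), and fell by 2.33 ± 0.52 on restimulation. Vhl exceeded its Treg level by 1.56 ± 0.21 in Th9 cells and by 1.05 ± 0.21 in Th2 cells, and fell by 1.74 ± 0.21 on restimulation. Hif1an, the asparaginyl hydroxylase gene that restrains HIF, differed from Treg cells by -0.73 ± 0.09 in Th9 and by -0.83 ± 0.09 in Th2 cells and rose by 0.28 ± 0.09 on restimulation (adjusted p = 0.0159; 0.128 with slide as a block). Arnt differed from Treg cells by 0.09 in Th9 and -0.12 in Th2 cells, not called in either, and fell by 0.70 on restimulation. Egln2 differed by -0.18 and -0.29, also not called, and fell by 0.62 on restimulation (adjusted p = 0.00332; 0.119 with slide as a block).

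Myc was at 2.61, 2.43 and 2.19 on the Th9 arrays, 3.93, 3.75 and 3.92 on the Th2 arrays and 2.48, 2.50 and 2.27 on the Treg arrays. Th9 and Treg arrays overlapped (-0.01 ± 0.15, adjusted p = 0.947), whereas Th2 cells were above both, by 1.45 over Treg cells and with -1.46 ± 0.15 for Th9 minus Th2 (adjusted p = 0.000143; -0.97 and 0.204 with slide as a block). On restimulation Myc rose to 5.23, 5.00 and 4.72 (2.58 ± 0.15, adjusted p = 2.22e-07), where Slc16a1 rose and 31 members fell. Mycn was not well above background on any Treg array and was at least 7.44-fold higher in Th9 and at least 5.79-fold higher in Th2 cells. Txnip, whose product restrains glucose uptake, was higher in Treg cultures. Its levels were 4.48, 4.33 and 5.07 on the Treg arrays, 0.79, 0.09 and 0.46 on the Th9 arrays and 1.08, 1.1 and 1.40 on the Th2 arrays (-4.18 ± 0.23 for Th9 minus Treg, -3.43 ± 0.23 for Th2 minus Treg). On restimulation the difference of Txnip was 0.01 ± 0.23 (adjusted p = 0.962). Arrdc4, of the same family, was higher in Th9 than in Th2 cells by 1.81 ± 0.33, as was Prkaa1, a subunit of the energy sensor AMPK, by 0.42 ± 0.10. Neither was called with slide as a block, Arrdc4 at 1.85 (adjusted p = 0.382) and Prkaa1 at 0.13 (0.891).

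Markers of other cells moved with the groups. All 8 B cell markers were higher in Treg cells than in either Th9 or Th2 cells. Their summed level ran from 5.83 to 6.28 on the Treg arrays, 2.39 to 2.79 on the Th9 arrays, 1.37 to 2.17 on the Th2 arrays and -0.59 to 1.35 on the restimulated arrays, and 6 of the 8 were lower after restimulation. Cd79b, a B cell receptor gene, was at 5.06, 5.06 and 4.61 on the Treg arrays and at 1.90, 2.19 and 2.25 on the Th9 arrays. Lyz2, a myeloid gene, was well above background on the Treg arrays alone. Of the 6 myeloid and dendritic markers 4 were lower and 1 higher in both Th9 and Th2 than in Treg cells, and after restimulation 2 were lower and 2 higher; their summed level was 0.32 to 1.32 on Treg, 0.75 to 1.43 on Th9, 1.1 to 1.35 on Th2 and -0.84 to -0.02 on restimulated arrays. Of 8 T cell markers 5 were lower in Th9 cells than in Treg cells, and their summed level was 8.54 to 8.91 on Treg and 7.55 to 7.69 on Th9 arrays. Of the 4 markers of CD8 T and NK cells 3 were tested. Their summed level was 3.86 to 4.28 on Treg, 3.78 to 4.18 on Th2, 4.32 to 4.76 on Th9 and 1.42 to 3.99 on restimulated arrays, and 2 of the 3 were lower after restimulation, as were all 3 within the slide shared with Th9 cells. Restimulated array 3, the one on that slide, was apart from the other two. Cd8a was at 2.47, 2.29 and -2.23 on the restimulated arrays, Cd8b1 at 3.38, 3.38 and 1.29, and the B cell gene Ms4a1 at -0.25, 0.00 and -3.73. Klrb1c, an NK cell receptor gene, was well above background on all Th9 arrays and no Treg array, at least 9.79-fold higher in Th9 cells. All 8 proliferation genes were higher in Th9 and in Th2 than in Treg cells, with median differences of 1.20 and 1.27. Against Treg cells, 4 of the 8 were called for Th9 and 5 for Th2 with slide as a block, with medians of 1.29 and 1.15, and within slide 1 it was 3 for Th2. After restimulation 4 of these rose and 3 fell, with 1.83 for the replication gene Mcm2 and -0.80 for Mki67, and with slide as a block 3 rose and 0 fell. The part of these markers in the members' differences was not tested. In bulk RNA, fewer cells of a type and less RNA per cell cannot be told apart.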

How the data were processed

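Per the file headers, spot intensity was extracted with Agilent Feature Extraction 10.5.1.1, with background subtraction and no scaling between arrays. The deposited table of the series holds log2 values on 12 columns. Its making is not given in the sources used here. It served as an alternative. From the processed signal, log2 was taken, control spots and outlier spots (60 to 94 per array) were left out, the spots of a probe were averaged, and the 75th percentile of the array was subtracted. A probe was kept where it was well above background on at least 3 of 12 arrays, and the kept probe with the highest mean stood for its gene. Names came from a RefSeq gene table (GRCm38.p6) by accession for 24375 probes, by current symbol for 6301 and by older symbol for 2426, and 8072 probes kept the design's name.

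All arrays were fitted with limma 3.58.1 in R 4.3.3 (1 mean per group, eBayes), with Benjamini-Hochberg adjustment over 17925 genes (17924 in comparisons with Th2 cells, where 1 gene had only outlier spots). Arrays of one group correlated at 0.988 to 0.995. With 3 arrays per group the number of arrays limits the precision. On simulated data for Th9 against Treg cells with 17899 genes, 90 of 100 genes changed by 2 on the log2 scale and 68 of 100 changed by 1 were recovered, and 17 of 17699 unchanged genes were called. The simulation changed few genes and drew independent noise without slide or array effects. In these data 28.8% of genes were called higher and 35.3% lower, so the simulated rates need not hold here.

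The members and lists were chosen with earlier results of these data known. Every member is named. Of each further list, up to 3 called genes with the largest change per comparison are named (2 genes that this rule takes are not reported here), together with Myc, Txnip, Epas1, Arnt, Vhl, Egln2 and Hif1an, and the markers Il9, Il4, Gata3, Foxp3, Cd4, Cd3e and Cd79b; Lyz2, Mcm2 and Mki67 were named after their values were seen. Same-numbered arrays of Th9 and Th2 cultures deviated together from their group means (correlations 0.20, 0.18 and 0.41), so the numbers were taken to pair these groups. In the other comparisons not every correlation was above 0.1. Alternatives changed the scaling, background correction, filter, probe choice, arrays fitted, source table, slide block and replicate block, or left out 1 array. Counts and ranges over settings take the main fit together with its alternatives.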

Additional observations from a re-analysis of the deposited data

How the results depend on the processing

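The counts of members called in both comparisons with Treg cells and after restimulation stayed within 1.5 times under every alternative run: 34 or 35 higher in Th9 than in Treg cells, 35 higher in Th2 than in Treg cells, and 30 to 34 lower after restimulation. For Th9 against Th2 cells, the count of members higher was 0, and 1 with the replicate block that pairs arrays by number. The count lower was 2, and became 1 with no filter on dim probes, 1 with only the arrays compared, 1 with the mean of a gene's probes and 0 with slide as a block; leaving out 1 array gave 0 to 2. It became 3 with quantile normalization, with normexp and with the deposited table of processed values. The calls gained in that direction were Ddit4 under these 3 settings (-0.30 to -0.36, adjusted p = 0.0326 to 0.0455), Egln3 with normexp (-0.63, 0.048) and Vegfa without Th2 array 3 (-0.79, 0.0342). Over 17 settings, the main fit included, the adjusted p of Ddit4 reached 0.498, that of Egln3 0.599 and that of Vegfa 0.963. Under the slide block 20 of the 36 members kept their sign between Th9 and Th2 cells and none was called; Slc16a1 turned from -0.65 to 0.037, and normexp turned the difference of Pdk1 between Th9 and Treg cells from -0.04 to 0.55, where another probe stands for Pdk1. The cause of the first was not tested. The replicate block changed no other member's call. In the comparison of restimulated with unstimulated Th9 cells, Pkm was called in 17 of 18 settings, the main fit included. The exception was the fit within 1 slide (-0.67). Signal over background did not limit the members, which were well above background on every array. What limits the comparison of Th9 with Th2 cells is that they share no slide.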
